A study of Mus musculus with 3 samples.

Results

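BATF, IRF4 and AP-1 factors are transcription factors that T cells induce after antigen receptor and cytokine signals. The 10 genes described here are Batf and Batf3 of the BATF family, the interferon regulatory factors Irf4 and Irf8, the large MAF factor Maf, and the AP-1 subunits Jun, Junb, Fos, Fosb and Fosl2. They were taken by their symbols from the 33696 genes of the deposited count tables, and all 10 were found. The genes were chosen with earlier results of these data known. Their levels and their shares of positive cells were compared among 3 libraries, and their joint expression was read cell by cell.

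The cells were intratumoral pmel T cells, that is, CD8+ T cells with a transgenic receptor for the melanoma antigen gp100, carrying the congenic marker Thy1.1. They were activated with gp100 and cytokine in culture, transferred into lymphodepleted C57BL/6 mice bearing subcutaneous B16F10 melanoma, and collected from tumors on day 18 after tumor injection by sorting live cells positive for Thy1.1 and CD8. One library came from each of 3 conditions. In the sIL-2 condition, cells were cultured in sIL-2 and mice were then given sIL-2. According to the study, sIL-2 is a "super IL-2" that was engineered to bind the receptor chain IL-2Rβ with high affinity. In the IL-2/21-Trikine condition, cells were cultured in a single protein and mice were then given the same protein. It joins sIL-2 to an IL-21 variant that binds the IL-21 receptor but does not signal. In the sIL-2 + IL-21 condition, cells were cultured in both separate cytokines. According to the study, mice in the last condition received sIL-2 alone after transfer, so IL-21 was given only in culture. No untreated library was among the 3. The sort for Thy1.1 selected against the endogenous T cells of the hosts, and any that remained were not searched for. The text of the study was not found to say how many mice were pooled for a library.

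Quality control kept 30857 of 31026 cells, namely 7760 with sIL-2, 13299 in the IL-2/21-Trikine library and 9798 with sIL-2 + IL-21. The libraries held 130200802, 166772854 and 168041089 unique molecular identifiers (UMIs, each marking 1 captured RNA molecule) in that order, which is also the order of any 3 values given in a row without names, with 10254 to 14055.5 as the median per cell. Between 18 and 43 cell barcodes were shared by a pair of libraries. At least 3 of 5 T cell genes were detected in 88.5% to 96.3% of cells. Hemoglobin RNA stood apart in the sIL-2 library, where all 4 hemoglobin genes listed were higher than in both other libraries. With 1 library per condition no difference could be tested. Brackets hold exact 95% Poisson or binomial intervals, which cover counting error only and no variation between mice, sorts or libraries. Levels are UMIs scaled to the total of a library (CPM) and serve to compare 1 gene between libraries, not 1 gene with another.

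BATF proteins are small basic leucine zipper factors that pair with JUN proteins and, with IRF4 or IRF8, bind composite AP-1 and IRF elements in activated T cells. FOS proteins also pair with JUN proteins, and these dimers drive early activation genes. BATF and IRF4 are needed for the expansion and effector differentiation of CD8+ T cells, while IL-2 signals mainly through STAT5 and IL-21 mainly through STAT3.

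Across single cells, Fos was correlated with Fosb, Junb and Jun, and Fosb with Junb. For these pairs the Pearson correlation was at least 0.1 in each library. The 250 bases before the start site are shown for Fos, Fosb and Junb, the 3 of these genes with a match to the motif marked, and the Jun window had none. Capitals mark each TGACG, a part of the cyclic AMP response element, searched on both strands like the motifs named after it. The sequences are from RefSeq on GRCm38.p6 and run 5′ to 3′ on the strand of the gene. The Fos window is chr12:85473640-85473889 on the plus strand, that of Fosb is chr7:19310046-19310295 on the minus strand, and that of Junb is chr8:84978749-84978998 on the minus strand.
Fos: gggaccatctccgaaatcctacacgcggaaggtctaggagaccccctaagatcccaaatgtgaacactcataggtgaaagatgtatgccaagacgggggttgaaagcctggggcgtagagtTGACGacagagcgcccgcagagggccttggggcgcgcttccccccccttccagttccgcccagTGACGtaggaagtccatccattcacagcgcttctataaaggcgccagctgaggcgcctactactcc
Fosb: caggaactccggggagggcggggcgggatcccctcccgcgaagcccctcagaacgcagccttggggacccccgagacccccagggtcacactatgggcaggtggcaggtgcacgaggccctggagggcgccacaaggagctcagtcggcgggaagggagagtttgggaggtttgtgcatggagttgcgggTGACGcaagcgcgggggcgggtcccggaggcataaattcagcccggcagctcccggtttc
Junb: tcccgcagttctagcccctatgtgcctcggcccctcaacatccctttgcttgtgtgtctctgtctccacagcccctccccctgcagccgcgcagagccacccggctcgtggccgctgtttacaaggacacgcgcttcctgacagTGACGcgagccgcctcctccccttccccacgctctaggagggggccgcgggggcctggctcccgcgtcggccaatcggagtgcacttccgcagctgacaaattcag
The matches lay 129 to 125 and 66 to 62 bases before the start in Fos, 60 to 56 in Fosb and 106 to 102 in Junb, and Batf had a match 98 to 94 bases before its start. Of 32851 promoters, 17.8% held TGACG in a window of this length. The AP-1 site TGANTCA was in 6.75% of promoters and in none of the 9 members with a sequence, and the CArG box, which binds serum response factor, was in 1.47% and in none of the 9. The STAT motif TTCNNNGAA was in 7.02% of promoters, in the window of Batf3 and in 1 of the 2 windows of Irf8. These matches describe letters in the window and no binding was measured. Sites beyond the window, or with other letters than these motifs, were not searched. Fos and Batf are neighbors on chromosome 12 (GRCm38), at chr12:85473890-85477273 and chr12:85686669-85709087, both on the plus strand. They lie 209395 bases apart with 1 protein-coding gene, the AP-1 repressor gene Jdp2, between them.

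Across whole libraries, Batf3 and Maf differed most and Batf and Jun least. Batf3 was 8.31-fold [7.41–9.34] higher with sIL-2 + IL-21 than with sIL-2, and Maf was 2.51-fold lower in the IL-2/21-Trikine library than with sIL-2. A log2 ratio of at least 0.5 either way, among genes that reached 5 CPM in 1 or both libraries, is called past the limit here. For IL-2/21-Trikine over sIL-2, none of the 9 members tested was higher and 3 were lower (Maf, Junb and Fosl2), where 2.98% of 8963 genes were higher and 6.09% were lower. For IL-2/21-Trikine over sIL-2 + IL-21, none of 10 members was higher and 2 were lower (Batf3 and Maf), against 3.71% and 4.04% of 8931 genes. For sIL-2 + IL-21 over sIL-2, 1 member was higher (Batf3) and 3 were lower (Irf4, Maf and Fosl2), against 6.21% and 10.4% of 9017 genes. The median log2 ratio of the members was −0.37, −0.16 and −0.14 in these comparisons, beside 0.00 for all genes tested in the second of these comparisons and −0.08 in the other two. Each library enters 2 of the 3 comparisons, so these counts are not independent of each other.

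**Figure D1:**
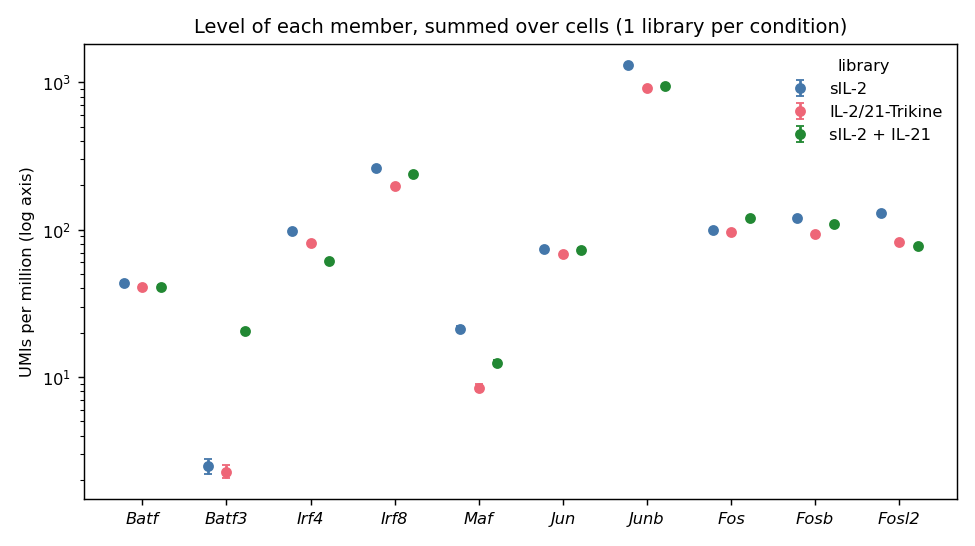
Levels of the 10 members in CPM (log axis) in the 3 libraries, with exact 95% Poisson intervals for counting error. Batf3 stands apart with sIL-2 + IL-21 at 20.6 CPM against 2.48 and 2.28, and Maf is lowest with IL-2/21-Trikine at 8.50 CPM.

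Batf, the pioneer-like partner of JUN and IRF4 in effector T cells, was at nearly the same level in the 3 libraries. It was at 43.5 CPM [42.4–44.6] with sIL-2, 41.1 [40.1–42.0] in the IL-2/21-Trikine library and 41.1 [40.1–42.1] with sIL-2 + IL-21. The last 2 libraries did not differ beyond counting error, and the sIL-2 library was above both by a log2 ratio of 0.08, about the shift of the median gene. After each cell was thinned to 2000 UMIs, which left 7494, 11524 and 9434 cells, 8.26%, 8.04% and 8.47% of cells held a Batf UMI. Cells that were not thinned gave 41.7%, 33.3% and 43.1%, in the order of the median UMIs per cell.

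Batf3, which can stand in for Batf in some cells and is best known for the development of cross-presenting dendritic cells, was found mainly with sIL-2 + IL-21. It had 323 UMIs with sIL-2, 381 in the IL-2/21-Trikine library and 3463 with sIL-2 + IL-21, or 2.48 [2.22–2.77], 2.28 [2.06–2.53] and 20.6 [19.9–21.3] CPM. The first 2 libraries did not differ beyond counting error. The log2 ratio of 3.05 for sIL-2 + IL-21 over sIL-2 was at the 99.99th percentile of all genes tested, and no gene had a lower ratio than Batf3 for IL-2/21-Trikine over sIL-2 + IL-21 (−3.17). After thinning, a Batf3 UMI was found in 16 of 7494 cells (0.214%), 21 of 11524 (0.182%) and 207 of 9434 (2.19%). Melanoma markers such as Pmel and Dct, which T cells should lack, were found in at most 0.267%, 0.235% and 0.148% of thinned cells in these libraries. After thinning, the Batf3 share was below the highest of these marker shares in the first 2 libraries and above it with sIL-2 + IL-21. The ratios to those 2 libraries therefore rest on low levels. Without thinning, 1.95%, 1.31% and 12.3% of cells were positive. The highest melanoma marker shares were then 1.07%, 1.09% and 0.970%, so Batf3 was above them in each library. Positive cells then held 2.14 Batf3 UMIs on average with sIL-2 (at most 14) and 2.19 with IL-2/21-Trikine (at most 15). Whether free RNA or a few expressing cells gave the UMIs in these 2 libraries was not tested.

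Because Batf3 is a dendritic cell gene, its cells were read for markers of other types. Of 1201 Batf3-positive cells with sIL-2 + IL-21, 99.1% held at least 3 of 5 T cell genes, against 95.8% of all cells of that library. Because nearly all cells passed, this share cannot tell where the Batf3 RNA came from. Summed over the 9 dendritic markers, levels were 52.0, 60.4 and 53.6 CPM, with Siglech at 0 in all 3 libraries and Clec9a at 0 with sIL-2. Zbtb46 (17.0, 15.6 and 19.5 CPM) and H2-Ab1 (16.0, 20.5 and 22.4 CPM) were highest with sIL-2 + IL-21. H2-Aa was highest with IL-2/21-Trikine (2.94, 14.3 and 4.36 CPM) and Itgax with sIL-2 (15.8, 9.56 and 7.08 CPM). The 10 myeloid markers summed to 206, 81.5 and 211 CPM, most of it Fcer1g, which activated T cells can also express. Cells with no UMI of a myeloid or dendritic marker (Fcer1g excepted) were selected after seeing the data. They numbered 3979, 8335 and 4662 of 7760, 13299 and 9798 kept cells. Outside the myeloid-like cluster described below, Zbtb46 alone was found in 15.6%, 12.5% and 20.2% of cells without thinning. The selection therefore also left out many cells that were not myeloid-like. In the selected cells Batf3 was at 0.925, 1.5 and 15.2 CPM. The sIL-2 + IL-21 library was again the highest.

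Irf4, whose level in T cells follows the strength of receptor signaling, was lowest with sIL-2 + IL-21. It was at 97.7 CPM [96.1–99.5] with sIL-2, 81.1 [79.8–82.5] in the IL-2/21-Trikine library and 61.4 [60.2–62.6] with sIL-2 + IL-21, and each step in this order was beyond counting error. The ratio of sIL-2 + IL-21 to sIL-2 was 0.628. A UMI was found in 16.6%, 14.0% and 11.6% of thinned cells in this order, and in 54.5%, 43.0% and 47.0% without thinning.

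Irf8, better known as the lineage factor of monocytes, dendritic cells and B cells and also induced in CD8+ effector cells, differed less. It was at 262 CPM [260–265] with sIL-2, 199 [196–201] in the IL-2/21-Trikine library and 238 [235–240] with sIL-2 + IL-21. No pair of libraries passed the limit, and the widest gap, between the IL-2/21-Trikine and sIL-2 libraries, was a ratio of 0.756. A UMI was found in 27.6%, 23.9% and 30.1% of thinned cells, so the order of sIL-2 and sIL-2 + IL-21 differed between CPM and share, and no order is read from these. Irf8 overlaps the predicted gene Gm20388 on the same strand, so its reads may be split between the 2 models. In cells with no UMI of a myeloid or dendritic marker Irf8 was at 230, 177 and 215 CPM, and its order of libraries was that over all cells.

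Maf, which activates Il10 and marks several exhausted and helper states, was the member with the lowest ratio in the IL-2/21-Trikine library relative to sIL-2. It had 2781 UMIs with sIL-2, 1418 in the IL-2/21-Trikine library and 2104 with sIL-2 + IL-21, at 21.4 [20.6–22.2], 8.50 [8.07–8.96] and 12.5 [12–13.1] CPM. Intervals did not overlap between any pair of libraries. The ratio of IL-2/21-Trikine to sIL-2 was 0.398 [0.373–0.425]. Maf was found in 4.91%, 2.02% and 3.47% of thinned cells, and in 20.9%, 7.66% and 14.6% without thinning, in the same order as the CPM.

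Jun, the founding AP-1 subunit, was at 74.0 CPM [72.5–75.5] with sIL-2, 68.7 [67.5–70.0] in the IL-2/21-Trikine library and 73.3 [72.0–74.6] with sIL-2 + IL-21. The sIL-2 and sIL-2 + IL-21 libraries did not differ beyond counting error. Junb, the JUN protein that pairs with BATF in many T cells, was at 1311 CPM [1305–1318] with sIL-2, 909 [904–913] in the IL-2/21-Trikine library and 947 [942–952] with sIL-2 + IL-21. Its ratio to sIL-2 was 0.693 in the IL-2/21-Trikine library and 0.722 with sIL-2 + IL-21, on either side of the limit. Junb was found in most cells, with 77.3%, 70.2% and 74.5% positive after thinning, and cells with 5 or more Junb UMIs made up 21.9%, 12.2% and 13.4%. Maf, Jun and Junb overlap genes on the opposite strand, and the strand setting of the counting is not given in the sources used here.

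Fos, the classic immediate early gene, was at 100 CPM [98.3–102] with sIL-2, 97.2 [95.8–98.8] in the IL-2/21-Trikine library and 120 [118–121] with sIL-2 + IL-21. It was 1.20-fold [1.17–1.22] higher with sIL-2 + IL-21 than with sIL-2, short of the limit. A UMI was found in 12.9%, 13.1% and 15.8% of thinned cells. Fos was spread unevenly, with a few cells holding up to 28 UMIs in the first 2 libraries and 23 with sIL-2 + IL-21.

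Fosb, a close paralog of Fos, was at 121 CPM [119–122] with sIL-2, 93.2 [91.7–94.7] in the IL-2/21-Trikine library and 109 [108–111] with sIL-2 + IL-21. No pair of libraries passed the limit. Fosl2, the FOS family member FRA2, was at 129 CPM [127–131] with sIL-2, 82.8 [81.4–84.2] in the IL-2/21-Trikine library and 77.5 [76.1–78.8] with sIL-2 + IL-21. Both of the latter were past the limit below sIL-2, at ratios of 0.640 and 0.598. A Fosl2 UMI was found in 24.0%, 16.7% and 15.7% of thinned cells. The order of the 2 lower libraries was not stable, since at the same weight of cell clusters the Fosl2 log2 ratio of IL-2/21-Trikine to sIL-2 + IL-21 was −0.11 in place of 0.10, and without thinning the shares were 70.6%, 49.8% and 59.9%.

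**Figure D2:**
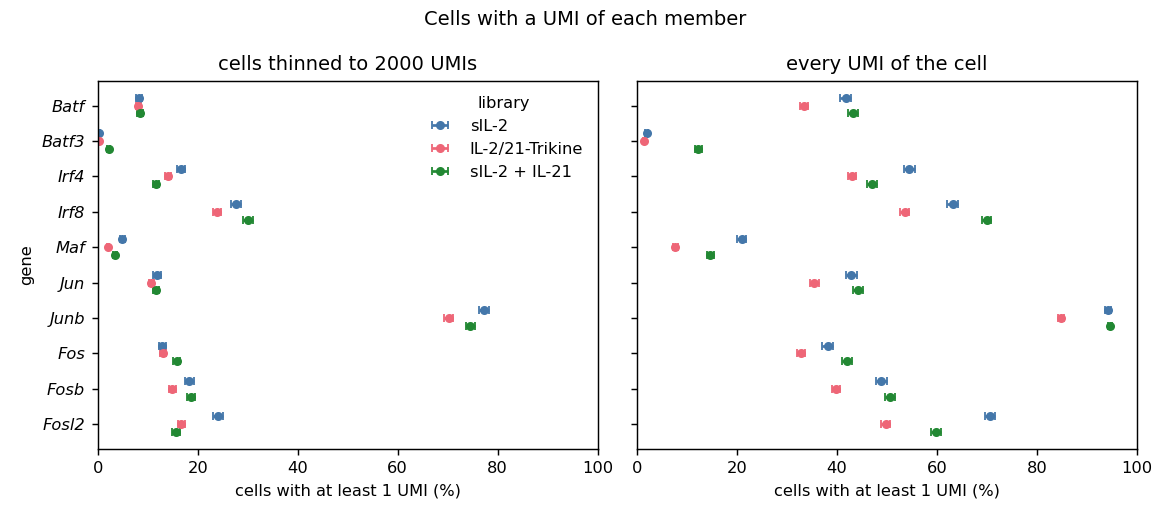
Share of cells with at least 1 UMI of each member, in percent, after thinning to 2000 UMIs (left, 7494, 11524 and 9434 cells) and without thinning (right, all kept cells), with exact 95% binomial intervals. After thinning, Batf3 was found in 2.19% of cells with sIL-2 + IL-21 against 0.214% and 0.182%, while the Batf shares lay between 8.04% and 8.47%.

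The pooled cells were next divided into 13 clusters with the 10 members and the cell class markers left out of the clustering, so that a member could be compared between cells of like state. Cluster 13 (44 cells led by Cxcl2, Il1b and S100a9) was myeloid-like, and Fos there was at 425 to 961 CPM. The 12 clusters with at least 50 cells in each library were compared. Clusters 5 and 10, which are among these 12, had a low depth, with medians of 1862 and 1224 UMIs per cell. Cluster 5 held 125, 1487 and 116 cells of the 3 libraries. Cluster 10 had a median of 9.17% mitochondrial UMIs, where the library medians were 1.28% to 1.36%. No doublet caller was run.

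Batf and Irf8 had opposite places in clusters 4 and 11. Batf was highest in cluster 4, led by the interferon-stimulated genes Ifit3, Ifit1 and Cxcl10, at 73.4, 67.8 and 87.7 CPM. It was lowest in cluster 11, led by the cytokine genes Il3, Il2 and Ccl3, at 19.1, 24.4 and 20.7 CPM. Irf8 was lowest in cluster 4 (61.8, 39.8 and 44.2 CPM) and highest in cluster 11 (553, 388 and 389 CPM). The same clusters held the extremes of both genes in each of the 3 libraries. In the same cluster 4, Maf was at 44.4, 23.0 and 51.5 CPM, above its level in the whole library in each case.

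The activation factors were high in other clusters. Junb was highest in cluster 2, led by Penk, Ccl1 and the receptor signaling gene Nr4a1, at 2006, 1470 and 1789 CPM. Fos was highest in cluster 11 in each library, at 184, 192 and 340 CPM. Irf4 was highest in cluster 11 with sIL-2 (153 CPM) and in cluster 6, led by Myc, Ccl4 and Egr3, with IL-2/21-Trikine (136 CPM) and sIL-2 + IL-21 (152 CPM). Batf3 with sIL-2 + IL-21 ranged from 1.12 CPM in cluster 4 to 59.6 in cluster 10, the latter over few UMIs in low-depth cells. Among deeper clusters it was at 28.8 CPM in cluster 12, led by histone genes and Mki67, 28.1 in cluster 9, led by Ccl1, Il3 and Csf2, and 21.5 in cluster 3, led by granzyme genes.

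Compared within clusters, Fos was higher with sIL-2 + IL-21 than with sIL-2 in all 12, with log2 ratios from 0.65 to 2.33 and a median of 1.05. Each of the 12 was beyond counting error. In cluster 2, for example, Fos was at 157 CPM with sIL-2, 176 in the IL-2/21-Trikine library and 248 with sIL-2 + IL-21. In cluster 12 it was at 57.6, 68.1 and 91.8 CPM. When each cluster was given the same weight in the 3 libraries, the ratio of sIL-2 + IL-21 to sIL-2 was 1.92-fold (log2 0.94, the 99.6th percentile of genes), against 1.20-fold over whole libraries. The clusters made up different parts of the libraries, and Fos differed up to 7.54-fold between clusters of 1 library, so the whole-library ratio and the within-cluster ratio were not the same quantity. In the same weighting, Fos with IL-2/21-Trikine stood at a log2 ratio of 0.26 over sIL-2 and −0.68 to sIL-2 + IL-21. Leaving out the low-depth and myeloid-like clusters 5, 10 and 13 left the whole-library log2 ratio of sIL-2 + IL-21 over sIL-2 at 0.26, and in cells with no UMI of a myeloid or dendritic marker it was 0.20.

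Fosb differed in the same direction but less. It was higher with sIL-2 + IL-21 than with sIL-2 in all 12 clusters, with log2 ratios from 0.03 to 1.98 and a median of 0.34, and 9 were beyond counting error. Over whole libraries its log2 ratio was −0.14, so its direction differed between the 2 ways of comparing. Batf3 was higher with sIL-2 + IL-21 than with sIL-2 in all 12 clusters, 11 of them beyond counting error, and at the same weight of clusters the ratio was 4.74-fold in place of 8.31-fold. These 3 members were the ones higher in every cluster, where 2.26% of all genes tested were, and no member was lower in every cluster, where 4.67% were. In a finer clustering with 18 clusters, Fos was higher in all 18, Batf3 in 17 and Fosb in 16. Batf3 was among the leading genes of cluster 14 of that clustering, beside Mt2, Mt1, Hspb1 and the melanoma genes Dct and Tyrp1. That cluster made up 0.76%, 1.16% and 9.58% of cells in the 3 libraries, and the source of its melanoma RNA was not tested.

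For IL-2/21-Trikine over sIL-2, Maf, Fosl2 and Irf8 were lower in all 12 clusters and no member was higher in all, against 9.20% and 3.63% of genes. The Maf log2 ratio ran from −1.91 to −0.59 with a median of −1.23, beyond counting error in each of the 12. That of Fosl2 ran from −0.93 to −0.20 with a median of −0.50, and 10 were beyond counting error. For IL-2/21-Trikine over sIL-2 + IL-21, Batf3, Junb, Fos and Fosb were lower in all 12 clusters and no member was higher in all, against 2.56% and 2.07% of genes. Maf was lower in 11 of the 12 in this comparison. Over the 18 finer clusters, Fos was the 1 member lower in every cluster in this comparison.

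**Figure D3:**
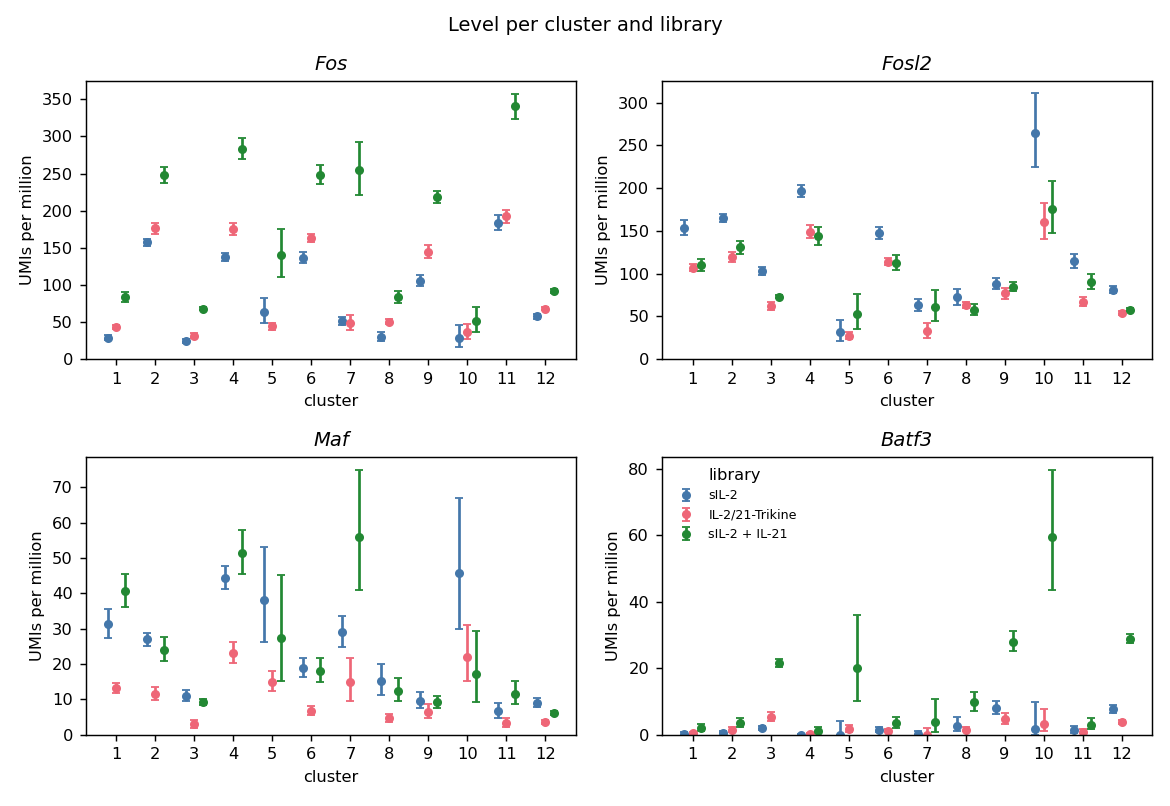
Levels of Fos, Fosl2, Maf and Batf3 in CPM in each of 12 clusters and 3 libraries, with exact 95% Poisson intervals. Fos with sIL-2 + IL-21 lies above the other libraries in each cluster, and Maf with IL-2/21-Trikine lies below sIL-2 in each.

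Some whole-library differences were small at the same weight of clusters. The Irf4 log2 ratio of sIL-2 + IL-21 over sIL-2 was −0.67 over whole libraries and −0.13 at the same weight, and that of Maf was −0.77 and −0.00. The Fosl2 ratio in this comparison was −0.74 and −0.40, and the Junb ratio of IL-2/21-Trikine over sIL-2 was −0.53 and −0.32. The Maf ratio of the IL-2/21-Trikine library to sIL-2 was −1.33 over whole libraries and −1.24 at the same weight, while its ratio to sIL-2 + IL-21 was −0.56 and −1.24. Under this weighting no member was past the limit above sIL-2 with IL-2/21-Trikine (background 0.692%) or above sIL-2 + IL-21 (background 1.24%). In the downward direction, 2 members were past the limit below sIL-2 with IL-2/21-Trikine (Maf and Fosl2), with a background of 3.69%, and 3 were below sIL-2 + IL-21 (Batf3, Maf and Fos), with a background of 2.30%. With sIL-2 + IL-21 over sIL-2, 2 were higher (Batf3 and Fos, background 1.36%) and none was lower (background 2.98%).

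**Figure D4:**
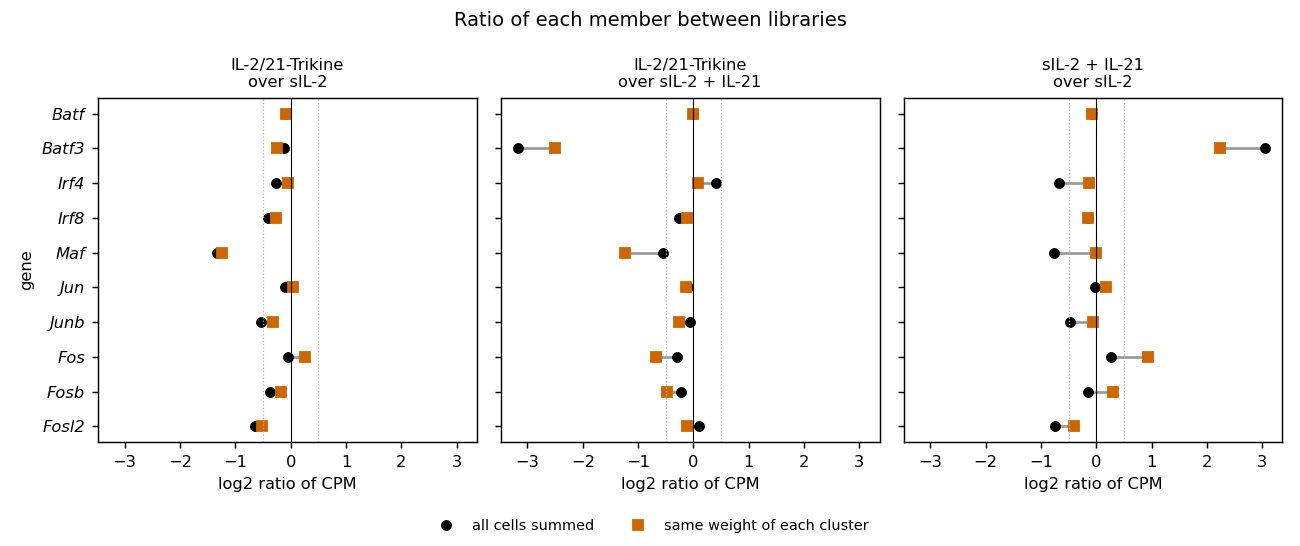
Log2 ratio of each member between pairs of libraries, over all cells (circles) and at the same weight of each of 12 clusters (squares), with dotted lines at the limit of 0.5 either way. Fos for sIL-2 + IL-21 over sIL-2 is 0.26 over whole libraries and 0.94 at the same weight, and Irf4 goes from −0.67 to −0.13.

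Related genes that were no members gave context. Of 16 other immediate early genes, 9 were past the limit below sIL-2 in the IL-2/21-Trikine library and none above, with a median log2 ratio of −0.57, against 6.09% lower and 2.98% higher over all genes tested. The receptor signaling gene Nr4a1 was at −0.97 and the RNA decay factor gene Zfp36 at −0.78. With sIL-2 + IL-21 over sIL-2, 8 of the 16 were lower and none higher, against 10.4% and 6.21% of all genes (median −0.49, Nr4a1 −1.16, Zfp36 −0.90). Relative to the sIL-2 + IL-21 library, the IL-2/21-Trikine library had 1 of them higher (Myc, 0.68) and 1 lower (Egr1, −0.71). The shares of all genes were 3.71% and 4.04%. At the same weight of clusters, 2 immediate early genes, Egr1 and the MAP kinase phosphatase gene Dusp1, were higher with sIL-2 + IL-21 than with sIL-2 (background 1.36%) and none was lower (background 2.98%). In the same weighting, the IL-2/21-Trikine library had 2 lower than sIL-2 (Nr4a1 and Dusp2, background 3.69%). Early genes can also be induced while tumors are dissociated. Of 9 heat shock genes, 1 was past the limit in the comparison of IL-2/21-Trikine with sIL-2 (Hspa1a, −0.51), against 6.09% of all genes lower. None was past it in the comparison of IL-2/21-Trikine with sIL-2 + IL-21. In sIL-2 + IL-21 over sIL-2, 1 was (Hspa1b, −0.53), against 10.4% of all genes lower. At the same weight of clusters these counts were 1 (Hspa1a), 0 and 2 (Hspa1a and Hspa1b), each lower. The backgrounds were 3.69%, 2.3% and 2.98%. The part of handling in the Fos and Fosb levels was not tested.

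Among other AP-1, ATF and MAF genes, Maff was lower in the IL-2/21-Trikine library than with sIL-2 (−0.62). It was 1 of 12 tested, where 6.09% of all genes were lower. Bach2 is a repressor that competes at AP-1 sites and is linked to memory. It was higher in the IL-2/21-Trikine library than in the sIL-2 + IL-21 library (0.73), while Jdp2 was lower (−0.76). These were 1 higher and 1 lower of 11 tested, against 3.71% and 4.04% of all genes. With sIL-2 + IL-21 over sIL-2, 3 of 12 were lower, against 10.4% of all genes. They were Bach2 (−0.99), Bach1 (−0.66) and Mafk (−0.57, named after its value was seen). At the same weight of clusters none of these genes was past the limit in either comparison with the IL-2/21-Trikine library. With sIL-2 + IL-21 over sIL-2 in that weighting, none was lower (background 2.98%) and Atf3 was higher (background 1.36%). Of 6 other IRF genes, Irf7 and Irf9 are part of the interferon response. These 2 were higher in the IL-2/21-Trikine library than in the sIL-2 + IL-21 library (1.16 and 0.53), against 3.71% of all genes. The same 2 were lower with sIL-2 + IL-21 than with sIL-2 (−1.51 and −0.64), against 10.4% of all genes. Irf5 was lower in the IL-2/21-Trikine library than with sIL-2 (−0.64), 1 of the 6, against 6.09% of all genes. At the same weight of clusters Irf5 and Irf7 stayed past the limit in these comparisons and Irf9 did not. The backgrounds in that weighting were 3.69% for Irf5, and 1.24% (higher) and 2.98% (lower) for Irf7.

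Of 12 T cell genes known to depend on BATF or IRF4, 10 could be compared. For IL-2/21-Trikine over sIL-2, 2 were lower, against 6.09% of all genes. For IL-2/21-Trikine over sIL-2 + IL-21, 1 was higher and 2 were lower, against 3.71% and 4.04%. With sIL-2 + IL-21 over sIL-2, 2 were lower, against 10.4%. Prdm1, which encodes the effector regulator BLIMP-1, was lower in the IL-2/21-Trikine library than with sIL-2 (−1.20) and than in the sIL-2 + IL-21 library (−1.08), and the glucose transporter gene Slc2a3 was lower in both (−0.59 and −0.51). Bcl6, a repressor that opposes BLIMP-1, was higher in the IL-2/21-Trikine library than in the sIL-2 + IL-21 library (1.09) and lower with sIL-2 + IL-21 than with sIL-2 (−1.45), where Hif1a was also lower (−0.60). The other genes that could be compared were within the limit, and Il10 and Il21 were below 5 CPM in each library. At the same weight of clusters, Prdm1 and Bcl6 stayed past the limit in these comparisons and Slc2a3 and Hif1a did not. The backgrounds in that weighting were 3.69% and 2.3% for Prdm1 (both lower), and 1.24% (higher) and 2.98% (lower) for Bcl6.

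Within single cells, Fos and Fosb were the members most closely correlated. The Pearson correlation of log-scaled levels after thinning was 0.308 with sIL-2, 0.312 in the IL-2/21-Trikine library and 0.341 with sIL-2 + IL-21, each over the cells of 1 library, and cells of a library share their depth and free RNA. Both genes were found in 367, 535 and 597 cells, which was 2.08 [1.87–2.30], 2.39 [2.19–2.60] and 2.16 [1.99–2.34] times the number given by their separate shares. Fosb was found in 37.9%, 35.5% and 40.1% of Fos-positive cells and in 15.3%, 11.8% and 14.5% of Fos-negative cells. The level followed the number of Fos UMIs, with Fosb at 103 CPM in cells with no Fos UMI, 213 in cells with 1 and 612 in cells with 2 or more with sIL-2. The same 3 levels were 74.7, 196 and 498 CPM with IL-2/21-Trikine, and 96.1, 232 and 558 CPM with sIL-2 + IL-21. Within clusters, the mean correlation over the libraries was 0.293.

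Jun followed Fos less closely. The Jun–Fos correlation was 0.144, 0.113 and 0.173, and both were found in 1.61, 1.59 and 1.78 times the number of cells given by their shares. In cells with 2 or more Fos UMIs, Jun was at 251, 165 and 221 CPM, against 64.5, 58.1 and 61.4 CPM in cells with none. Of the 28 pairs among the 8 members found in at least 5% of cells, 4 had a correlation of at least 0.1 in each library (Jun–Fos, Junb–Fos, Junb–Fosb and Fos–Fosb), and 0.133% of 9669003 pairs of genes did. Batf3 and Maf were found in too few cells to enter. The Jun–Fosb correlation (0.093, 0.108 and 0.156) was below 0.1 in the sIL-2 library only. Fosl2 went with Junb (0.158, 0.128 and 0.098) and hardly with Fos, with a mean of 0.012.

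Batf and Irf4, whose proteins act together, showed no such link in RNA. Their correlation was −0.034, −0.008 and 0.020. Both were found in 0.719 [0.565–0.903], 0.939 [0.779–1.12] and 1.19 [0.976–1.43] times the number of cells given by their shares. The intervals of the last 2 include 1, and the difference between libraries was not tested. At 5000 UMIs per cell these values were 0.925, 0.990 and 0.975. Batf and Irf8 were found together in 0.866, 0.746 and 0.891 times that number, and Irf8 and Maf in 0.689, 0.683 and 0.651 times.

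**Figure D5:**
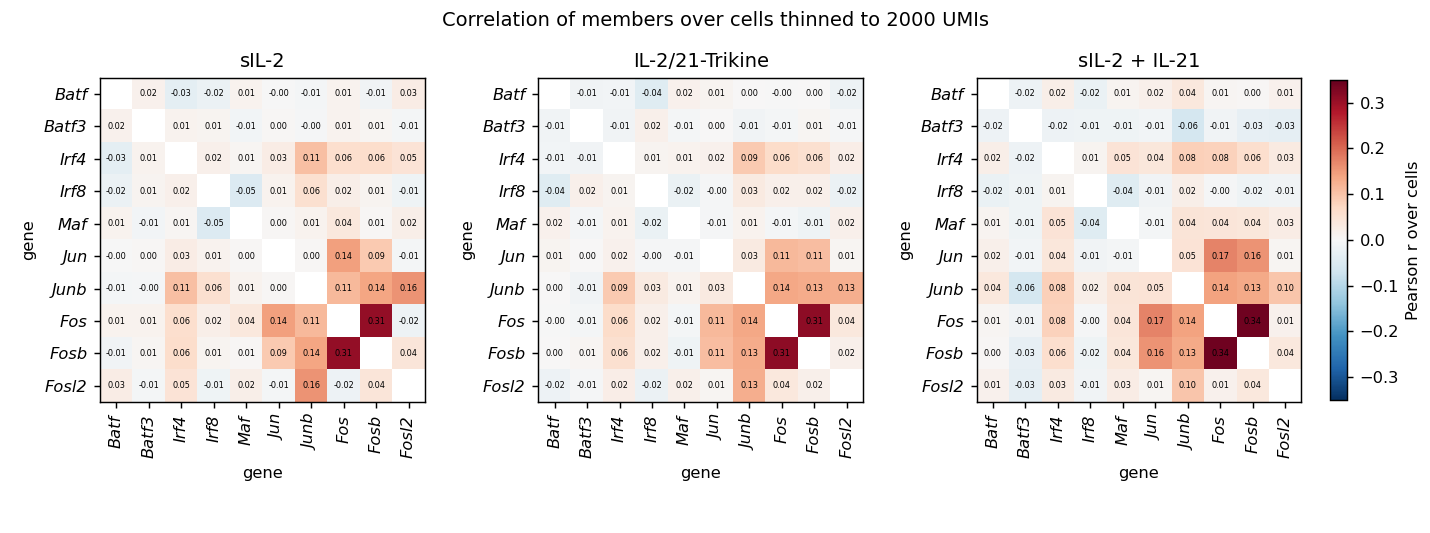
Pearson correlation across single cells between pairs of members, after thinning to 2000 UMIs, in the 3 libraries. Fos and Fosb have the highest value in each (0.308, 0.312 and 0.341), and pairs with Batf lie near 0.

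The genes nearest to each member across cells, by the mean correlation over the 3 libraries, were partly shared between members. Fos was nearest to Dusp1 (0.277), the early activation marker gene Cd69 (0.273) and Klf2 (0.253), and Fosb to Cd69 (0.210), Dusp1 and Atf3. Jun was nearest to Cd69 (0.115), Zfp36 and Klf2. Junb was nearest to the NF-κB inhibitor gene Nfkbia (0.421), Gadd45b (0.384) and Btg2 (0.339), the highest values for any member. After thinning, Junb was also the member found in the most cells (77.3%, 70.2% and 74.5%). Irf8 was nearest to the chemokine genes Xcl1 (0.232), Ccl1 (0.201) and Ccl3 (0.181), and Irf4 to Ccl4 (0.136), Gadd45b and Ccl3. For the other members the values were weak: Fosl2 with Btg2 (0.131), Malat1 and Dusp5, Maf with Malat1 (0.081), Btg1 and Satb1, Batf3 with Fabp5 (0.073), Dut and Tipin, and Batf with Gramd3 (0.064), Epsti1 and Ly6c2. The 99th percentile over all pairs of genes was 0.052. In counts this sparse, a weak correlation says little about a pair.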

How the data were processed

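For each library, the authors deposited a matrix of raw UMI counts from Cell Ranger (9.0.0 in the matrix header), made from 10x 3′ libraries, with intronic reads included and without normalization. The methods name a GRCm39 reference and the labels mm10, so positions printed here come from GRCm38 annotation matched by gene ID (10 of 10). Cells with 500 to 120000 UMIs and at most 20% mitochondrial UMIs were kept, as in the methods. This left the number of cells the study states in each library except sIL-2 + IL-21, which had 1 more.

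Counts were summed per library and scaled to CPM. Shares and correlations used cells thinned to 2000 UMIs with a fixed seed, leaving out 266, 1775 and 364 shallower cells (sIL-2, IL-2/21-Trikine, sIL-2 + IL-21). Correlations used genes found in at least 5% of cells, and nearest genes were sought for all members. Clusters came from 2000 variable genes, 50 principal components, 20 neighbors and the Leiden method at resolution 1.0, without the members and class markers, batch correction or doublet removal. Named genes were the members, the 3 genes nearest to each by mean correlation, and the 2 highest and 2 lowest ratios of each list. Members and lists were chosen with earlier results of these data known, and the text names mainly those past the limit. With 1 library per condition no test was made. The ratios with their intervals, the thinning and the correlation per cell were tested on simulated counts. Clustering, the same weighting of clusters, joint detection and the motif search were not. Alternatives covered cell filters, scaling, thinning, clustering resolution and left-out clusters. Tools were Python 3.11.15, numpy 2.4.6, scipy 1.17.1, pandas 2.3.3, scanpy 1.11.5, scikit-learn 1.9.0, python-igraph 0.11.9 and matplotlib 3.10.9.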

Additional observations from a re-analysis of the deposited data

How the results depend on the processing

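No paired analysis was possible because each condition had 1 library. Over 11 alternatives, Batf3 in both comparisons with sIL-2 + IL-21 and Maf in both comparisons with IL-2/21-Trikine stayed past the limit in 11 of 11, with log2 ratios of 1.92 to 4.04 for Batf3 (sIL-2 + IL-21 over sIL-2) and −1.44 to −1.20 for Maf (IL-2/21-Trikine over sIL-2). In the latter comparison Fosl2 stayed in 10 of 11 and Junb in 4 of 11. Irf4, Maf and Fosl2 for sIL-2 + IL-21 over sIL-2 stayed in 8 of 11 each. The 3 in which they did not were the same weight of clusters at resolutions 1.0, 0.5 and 1.5, where 0 members were lower in place of 3 and 2 were higher in place of 1. At resolution 1.5 the same weighting gave 1 lower member for IL-2/21-Trikine over sIL-2 (3 over whole libraries) and 4 for IL-2/21-Trikine over sIL-2 + IL-21 (2 over whole libraries), and it turned the Maf ratio of sIL-2 + IL-21 over sIL-2 to 0.10 from −0.77. Counts over every cluster also changed with resolution. At 1.5, 1 member was lower for IL-2/21-Trikine over sIL-2 + IL-21 (4 at 1.0) and 1 was higher for sIL-2 + IL-21 over sIL-2 (3 at 1.0), while at 0.5, the comparison of IL-2/21-Trikine with sIL-2 had 1 higher, and 1 was lower for sIL-2 + IL-21 over sIL-2 (0 at 1.0 for both). Fos for sIL-2 + IL-21 over sIL-2 was higher in all 6 clusters at 0.5 and all 18 at 1.5. The pairs of members with a correlation of at least 0.1 numbered 4 at 2000 UMIs, 1 at 1000, 9 at 5000 and 2 when averaged within clusters. Depth also moved the shares. Relative to 2000 UMIs, the sIL-2 library had the highest share for fewer members without thinning (3), and the IL-2/21-Trikine library for more at 1000 UMIs (1). The lowest share fell in sIL-2 for more members at 5000 UMIs (2) and for fewer without thinning (0). It fell in sIL-2 + IL-21 for more members at 1000 UMIs (4), and for fewer at 5000 (1) and without thinning (0). The cause of these changes was not tested.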
